A study of Mus musculus with 32 samples.

Results

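Non-restored tumors were the Lkb1-deficient side of a study that trapped and then restored the tumor suppressor Lkb1 (gene symbol Stk11) in mouse lung adenocarcinoma, and they came from 2 different kinds of control animal. In the tamoxifen arm, mice without the FLPo-ERT2 recombinase received tamoxifen. In the vehicle arm, mice with FLPo-ERT2 received corn oil. Members were chosen from the labels NonRestored#1 to NonRestored#10 with Trp53 wild-type, by treatment and genotype (the label of library 1 is spelled NonRestord#1), which gave 10 of the 32 libraries of the series: 4 in the tamoxifen arm (libraries 2, 7, 8 and 9) and 6 in the vehicle arm (libraries 1, 3, 4, 5, 6 and 10). All 10 carried Lkb1 XTR/XTR and Rosa26 LSL-tdTomato, and the vehicle arm carried FLPo-ERT2 as its second Rosa26 allele. Tumors were started with lentiviral Cre, grew for 24 to 27 weeks, and were collected after 2 weeks of corn oil or of tamoxifen in 4 mg doses. Tumors were dissected, and tdTomato-positive cells without CD45, CD31, F4/80 or Ter119 were sorted. Mice were of a mixed strain background. Drug and allele changed together in this comparison, so their effects cannot be told apart. Restored tumors (7 libraries) carried Lkb1 XTR/XTR and FLPo-ERT2 and received tamoxifen, and KT tumors (4 libraries) carried Rosa26 LSL-tdTomato with wild-type Lkb1 and were untreated. Both kinds were collected 24 to 27 weeks after tumor start. Trp53-deficient tumors, 16 to 19 weeks after tumor start, were used as well. They were 2 non-restored tamoxifen libraries without FLPo-ERT2, 5 non-restored vehicle libraries with it, and 4 restored libraries with FLPo-ERT2 and tamoxifen.

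FLPo-ERT2 is a recombinase fused to a mutated estrogen receptor domain. The fusion stays outside the nucleus until a tamoxifen metabolite binds it, and it then cuts at FRT sites, which in the Lkb1 XTR allele removes the gene trap. Neither control can remove the trap, one for want of the recombinase and the other for want of its ligand. Tamoxifen itself is not inert: it binds estrogen receptors, is oxidized by liver cytochromes, is a cationic amphiphilic drug that can load lysosomes with phospholipid, and interferes with sterol synthesis. Targets of p53 respond to DNA damage and other stresses. Gene lists for each of these processes, for the tumor cell state and for other cell types were therefore counted in the arm comparison.

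The libraries held between 1485923 and 5080811 expected counts assigned to genes, with 1524746 to 5080811 in the tamoxifen arm and 1485923 to 4307301 in the vehicle arm. Levels are given as CPM, counts scaled to the size of the library, and a floor of 3 counts corresponded to between 0.59 and 2.02 CPM. The tamoxifen arm held 2 male (2 and 9) and 2 female libraries, the vehicle arm 1 male (10) and 5 female. All 3 male libraries had Y-linked counts above every female library. The study sampled fewer mice than libraries in each arm, so some libraries came from the same mouse, and the pairs are not named. The p-values below treat libraries as independent and are therefore too small. No pair within an arm differed by as little as counting noise (chi-square per degree of freedom of 4.43 or more), so each library was counted once.

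Stk11 was at the floor in both arms. Its expected counts were 0 to 1 in the tamoxifen arm and 0 to 2.46 in the vehicle arm, against 18.2 to 130 in the 7 restored libraries (FLPo-ERT2 with tamoxifen) and 19.6 to 67.2 in the 4 KT libraries, which have an untrapped Lkb1 gene and no treatment. Every non-restored library thus fell below the 3-count floor, and a difference between the arms was not detectable at this depth (exact two-sided permutation test, n = 4 and 6, p = 0.352, where the smallest possible p is 0.00476). Trp53, which encodes p53, was at 28.6 ± 7.28 CPM (SD, n = 4) with tamoxifen and 23.7 ± 8.89 CPM (SD, n = 6) with vehicle, a log2 difference of 0.315 by group means of log2 CPM (exact two-sided permutation test, p = 0.357). In edgeR with sex as a covariate its log2 fold change was 0.521 (unadjusted p = 0.0372, adjusted p = 0.781). In the female libraries alone it was 0.396 (edgeR, unadjusted p = 0.19).

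Across 12636 genes, 1 gene differed between the arms at an adjusted p under 0.05, which is 0.00791% of the genes tested: the pseudogene Gm28438. An unadjusted p under 0.05 was found for 582 genes (4.61%), with 299 higher (2.37%) and 283 lower (2.24%) with tamoxifen. The arms did not overlap for 97 genes (0.768%), 46 higher and 51 lower with tamoxifen. The lowest adjusted p after Gm28438 was 0.336. With libraries taken as independent, the 95% interval of the log2 fold change lay wholly between -1 and 1 for 7838 genes (62.0%). The same held for 6847 of the 8519 genes with a mean of at least 10 CPM (80.4%). For the other genes a log2 fold change of at least 1 in size was not excluded by the interval. The median half-width of the interval was 0.594. Because some libraries share a mouse, the intervals are too narrow and these shares too high. The median log2 fold change of all genes was 0.02, and 53.6% of genes had a positive one.

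Gm28438 lies at chr1:24612775-24613119 (GRCm38, minus strand) and is annotated as an unprocessed pseudogene of 345 bases. It sits in a run of 7 pseudogenes that are nuclear copies of neighboring mitochondrial genes, in the order Gm28439 (a copy of mt-Nd4), Gm10222 (mt-Nd4l), Gm28438 (mt-Nd3), Gm28437 (mt-Co3), Gm10925 (mt-Atp6), Gm28661 (mt-Co2) and Gm29216 (mt-Co1). The mitochondrial genes encode subunits of the respiratory chain and ATP synthase. Their own names are absent from the files, which list 0 genes with the mt- prefix, and the copies are so alike that their counts cannot be assigned to the nucleus or to mitochondria. Over its 345 bases Gm28438 differed from mt-Nd3 at a single position, T3C (mt-Nd3 base, position counted from 1 at the 5′ end of the GENCODE M21 transcript, Gm28438 base). Gm29216 also differed at 1 position from mt-Co1 (A1066T), over 483 aligned bases of its 492. Gm28439, Gm10222, Gm28437, Gm10925 and Gm28661 matched the mitochondrial sequence at every base of their own length. The first 30 bases of Gm28438 and mt-Nd3 are shown with the differing base in capitals. This base is their only difference over the 345 aligned bases, and mt-Nd3 is 348 bases long.
Gm28438: atCaacctgtacactgttatcttcattaat
mt-Nd3: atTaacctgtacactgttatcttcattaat

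Gm28438 was at 2378 CPM in tamoxifen library 9, 1732 CPM in library 7, 1056 CPM in library 8 and 269.8 CPM in library 2. The 6 vehicle libraries ranged from 107.5 to 311.5 CPM, with a median of 221 CPM. Of the tamoxifen libraries, 3 were thus far above every vehicle library, while library 2 lay inside the vehicle range. The log2 fold change was 2.76 ± 0.41 (SE, adjusted p = 0.0207). The call depended on single libraries: the adjusted p was 0.177 without tamoxifen library 9, 0.138 without 7 and 0.0524 without 8, and it was 0.0773, 0.0833, 0.0884, 0.0747 and 0.0504 without vehicle libraries 1, 4, 5, 6 and 10. It stayed called without vehicle library 3 (0.026) and without tamoxifen library 2 (6.05e-05). In these fits the log2 fold change lay between 2.33 (without tamoxifen library 9) and 3.1 (without tamoxifen library 2). Sex as a covariate gave an adjusted p of 0.0596, and the female libraries alone gave 0.0304.

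The 6 neighbors of Gm28438 did not share its difference. Their log2 fold changes ranged from -0.14 (Gm29216, 95% interval -0.61 to 0.32) to -0.03 (Gm28439, -0.59 to 0.53). Set against the summed counts of these 6 neighbors, a ratio chosen after the values had been seen, Gm28438 amounted to 5.53% in tamoxifen library 9, 4.83% in library 7 and 4.19% in library 8. It amounted to 0.619% in tamoxifen library 2. The vehicle libraries lay between 0.378% and 0.627%. The other 29 of the 32 libraries, whatever their drug, allele or Trp53 status, lay between 0.286% and 0.627%, including all 7 restored libraries (0.43% to 0.562%), which had received tamoxifen as well. Library 9 is male and libraries 7 and 8 are female, so the high ratio occurred in both sexes. Which mice these 3 libraries came from is not given in the labels.

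**Figure D1:**
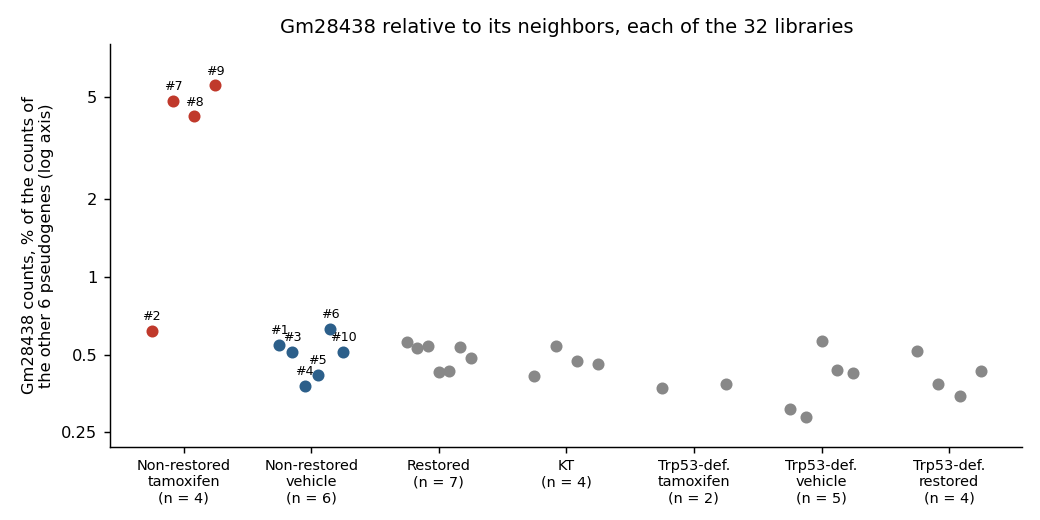
Counts of Gm28438 as a percentage of the summed counts of the other 6 pseudogenes of its cluster (log axis), 1 point per library, for all 7 groups, with library numbers for the arms compared. Tamoxifen libraries 7, 8 and 9 lie between 4.19% and 5.53%, and the other 29 libraries lie between 0.286% and 0.627%.

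The genes with the smallest p in the direction of lower levels with tamoxifen did not pass the adjusted threshold in edgeR. DESeq2 called 11 genes lower with tamoxifen, Stc1 among them (adjusted p = 0.000329), and limma voom called 0 genes. Several of the genes with the smallest p did not overlap between the arms, where 0.768% of all genes did not in either direction. Because the genes were chosen by their p, the lack of overlap follows in part from the choice and is no further support. Stc1, which encodes the secreted glycoprotein stanniocalcin 1, was at 30.3, 34.4, 14.4 and 27.2 CPM in tamoxifen libraries 2, 7, 8 and 9, and at 44.7 to 262 CPM (median 90.3) in the vehicle libraries. No value of one arm reached the other (log2 fold change -2.16 ± 0.42 SE, adjusted p = 0.336). The uncharacterized gene AU021092 was at 61.8, 70.45, 36.0 and 58.9 CPM against 77.8 to 141 CPM (median 123), again without overlap (-1.03 ± 0.23 SE, adjusted p = 0.747). Clic6, a chloride intracellular channel protein, was at 2.58, 1.57, 0.464 and 1.60 CPM against 5.00 to 27.1 CPM (median 10.4; -3.07 ± 0.71 SE, adjusted p = 0.747). Svopl, a transporter-like protein, and the antisense transcript Gm44752 also did not overlap, with log2 fold changes of -1.36 and -1.22 (adjusted p = 0.88 for both).

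The other genes of this direction overlapped through 1 library or a few. Atp6v0a4, a subunit of the vacuolar proton pump, was at 63.8, 104.9, 61.0 and 85.7 CPM with tamoxifen and at 78.3 to 254 CPM (median 203) with vehicle. Ndrg2, a stress-responsive gene often silenced in tumors, was at 9.66, 11.9, 3.48 and 12.8 CPM against 12 to 47.8 CPM (median 36.4), and only vehicle library 6 reached the tamoxifen range. Atp13a4, a P-type transporter, was at 12.2, 21.4, 7.19 and 25.4 CPM against 11.8 to 70.0 CPM (median 51.8), where vehicle library 10 lay inside the tamoxifen range. B3gnt7, a glycosyltransferase, had a log2 fold change of -3.04 ± 0.72 SE, Tnxb, a matrix glycoprotein, -2.98 ± 0.77 SE, and Mrps12, a mitochondrial ribosomal protein, -2.44 ± 0.66 SE, all from low levels (vehicle medians of 11.4, 6.20 and 6.39 CPM). AL592187.2 was lower still in level (vehicle median 4.64 CPM; -2.04 ± 0.48 SE).

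Among the genes with the smallest p in the direction of higher levels, library 8 set many of the values. Prom1, which encodes the membrane protein CD133, was at 218 CPM in tamoxifen library 8, at 3.22, 8.33 and 0.599 CPM in libraries 2, 7 and 9, and at 0 to 2.14 CPM in the vehicle arm. The noncoding genes Gm20186 and Gm44275 were also highest in library 8, with 176 and 107 CPM in library 8 and at most 23.8 and 3.60 CPM in the other tamoxifen libraries. Scpep1, a serine carboxypeptidase, was at 216 CPM in library 8 and at 39.9 to 61.3 CPM in libraries 2, 7 and 9, against 38.6 to 49.1 CPM with vehicle. Without library 8 the log2 fold changes were 2.56 rather than 6.43 for Prom1, 3.12 rather than 5.07 for Gm20186, 3.32 rather than 7.34 for Gm44275 and 0.23 rather than 1.07 for Scpep1.

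Other genes of this direction had smaller log2 fold changes. Lurap1l was at 72.1, 68.4, 80.3 and 58.9 CPM in the tamoxifen libraries and at 33.5 to 55.1 CPM (median 40.6) with vehicle, the only one of the 12 without overlap (0.72 ± 0.21 SE, adjusted p = 0.925). Washc5, a subunit of the WASH complex of endosomal sorting, was at 99.82, 114, 118 and 148 CPM against 68.0 to 99.83 CPM (0.44 ± 0.12 SE). Rcbtb1, Bbip1 (a subunit of the ciliary BBSome), Tomm70a (a receptor of the mitochondrial import machinery) and Polr1b (a subunit of RNA polymerase I) had log2 fold changes of 0.60, 0.80, 0.53 and 0.98, with adjusted p between 0.88 and 0.944. All 4 were highest in library 8, and without it the log2 fold changes were 0.44, 0.42, 0.35 and 0.81.

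**Figure D2:**
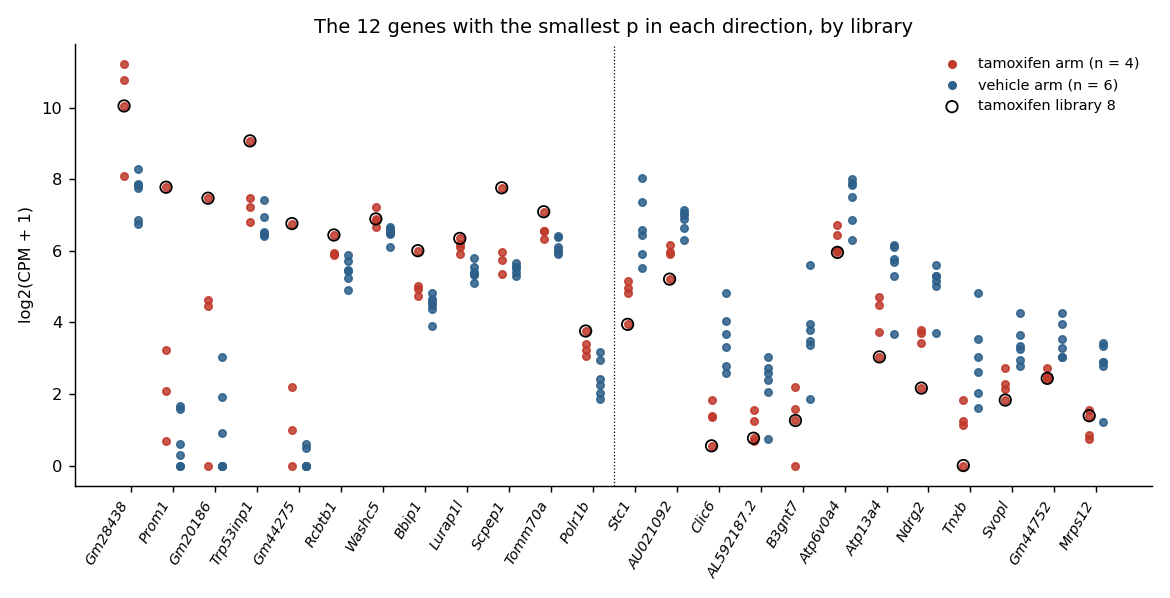
log2(CPM + 1) of the 12 genes with the smallest p in each direction, 1 point per library, with tamoxifen library 8 ringed (left of the dotted line, higher with tamoxifen; right, lower). Gm28438 alone passed the adjusted threshold in edgeR. Lurap1l, Stc1, AU021092, Clic6, Svopl and Gm44752 did not overlap between arms, which the choice of genes by p favors. Library 8 is far above all other points for Prom1, Gm20186, Gm44275, Trp53inp1 and Scpep1.

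Library 8 stood apart from all other non-restored libraries. Its Pearson correlation with the other 9 over log2 CPM had a median of 0.802, against 0.876 to 0.939 for each of the others. The first principal component of the 500 most variable genes held 63.4% of the variance and placed library 8 at 71.8, vehicle libraries 4 and 5 at 44.1 and 19.3, and the rest between -31.4 and -1.6. Its positive end was led by the mast cell proteases Mcpt1 and Mcpt2, the mucosal protein Dmbt1 and the gastric peptide Tff1. Tff1 was at 5180.8 CPM in library 8, at 174 CPM in tamoxifen library 7, at 1.8 CPM or below in tamoxifen libraries 2 and 9, and at 0 to 959 CPM in the vehicle arm. The arms were not separated on this component (exact two-sided permutation test, n = 4 and 6, p = 0.895). Component 3 (7.63% of the variance) had the largest difference between arms of the first 4, with scores of 6.69, 5.67, 21.2 and 6.94 for tamoxifen and -19.6 to 7.73 for vehicle (exact permutation p = 0.0333, adjusted over the 4 components 0.133). Only vehicle library 10, the male of that arm, lay inside the tamoxifen range of component 3.

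**Figure D3:**
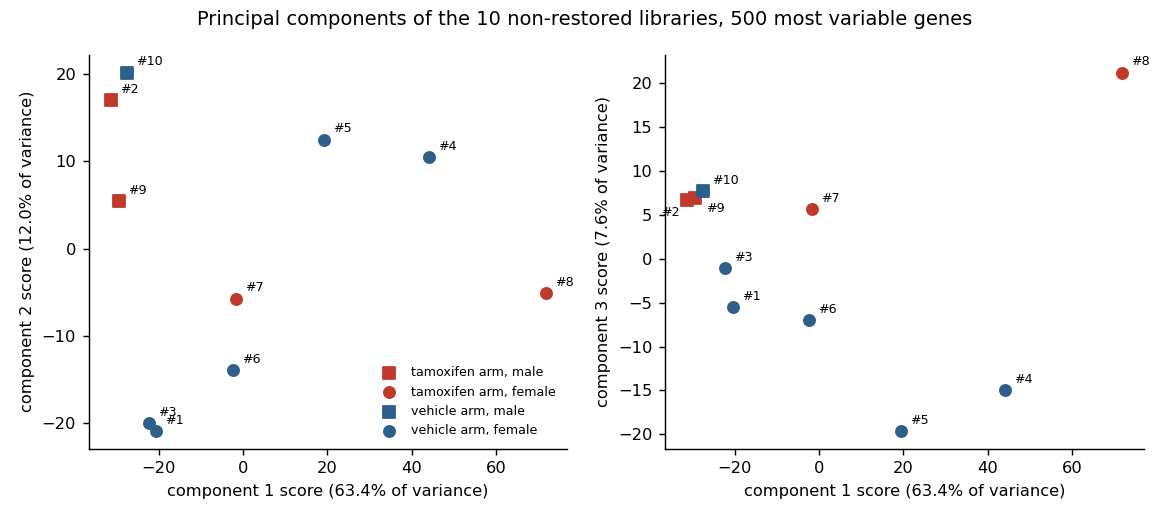
Scores of the 10 non-restored libraries on principal components 1 and 2 (left) and 1 and 3 (right), with library numbers, arm by color and sex by symbol. Library 8 lies alone at 71.8 on component 1, vehicle libraries 4 and 5 lie next to it at 44.1 and 19.3, and the arms are intermixed on components 1 and 2.

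Library 8 also lay outside the other libraries in the alveolar and gastric lists. The genes of alveolar type II (ATII) cells, the surfactant-producing cells of the lung, summed to 12168.9 CPM in library 8, to between 105110.6 and 131089.4 CPM in the other tamoxifen libraries and to between 51758.8 and 106068.5 CPM with vehicle. The lineage factor Nkx2-1 was at 71.0 CPM in library 8, at 290.5 to 312.4 CPM in the other tamoxifen libraries and at 189 to 401 CPM with vehicle. The gastric and liver list summed to 11539.2 CPM in library 8, to 16.4 to 410 CPM in libraries 2, 7 and 9, and to 61.2 to 3476.2 CPM with vehicle. Epithelial markers were present throughout, with Epcam at 223 CPM or above and Cdh1 at 772 CPM or above in each tamoxifen library and at 216 and 665 CPM or above in each vehicle library. Since 1 of 4 libraries weighed this much, the medians of most lists are given with and without it. Without library 8, 5.32% of all genes had an unadjusted p under 0.05 and 0 passed the adjusted threshold in edgeR (Gm28438, 0.0524, with 689 genes at an unadjusted p under 0.05). A positive log2 fold change was then found for 6317 of 12944 genes. Of the 3 tamoxifen libraries then left, 2 were male, against 1 of 6 vehicle libraries. On plain means of log2 CPM, list medians were of the opposite sign to the fit for estrogen receptor targets (-0.01), ATII genes (-0.32), lineage factors (-0.08), the matrix list (-0.05), fibroblast genes (-0.04), epithelial markers (-0.00032) and the gastric and liver list (-0.28).

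The lists for the drug showed no gene past the adjusted threshold. Of 15 tested estrogen receptor targets, 10 had a positive and 5 a negative log2 fold change, with a median of 0.27, against 0.02 for all genes. The median was -0.19 without library 8. Tff1, high in library 8, is a member of this list and of the gastric and liver list. Greb1, a cofactor and classic target of the estrogen receptor, was the only member with an unadjusted p under 0.05, and it was at 1.29, 1.35, 0.232 and 1.60 CPM with tamoxifen and 0 to 10.7 CPM with vehicle, an overlapping range (-1.77 ± 0.78 SE). Of 27 genes of drug and xenobiotic metabolism, 20 were positive (median 0.21), 0 had an unadjusted p under 0.05, and the median was -0.31 without library 8. The member with the smallest p, the drug efflux pump Abcb1b, was at 238 CPM in library 8 and at 3.22 to 11.03 CPM in the other tamoxifen libraries, and its log2 fold change turned from 1.93 to -1.45 without library 8.

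Of 24 sterol synthesis genes, 19 were positive, with a median of 0.19 and a range from -0.16 to 0.45, and 0 had an unadjusted p under 0.05. Hmgcs1, which makes the precursor of mevalonate, was at 172.0, 192, 176 and 239 CPM with tamoxifen and at 123 to 158 CPM (median 148) with vehicle, without overlap (0.42, 95% interval -0.18 to 1.02). The list's median was 0.03 without library 8. Lysosomal and phospholipid storage genes were centered on a median of 0.01, with 16 of 25 positive, and 1 had an unadjusted p under 0.05, the alpha-galactosidase gene Gla (0.57 ± 0.27 SE). In the ER stress list, 7 of 16 were positive (median -0.10, and -0.19 without library 8). Asns, asparagine synthetase, was at 145 CPM in library 8 and 39.3 to 52.5 CPM in the others against 17.1 to 47.0 CPM with vehicle (1.04 ± 0.33 SE, and 0.40 without library 8), and the chaperone Hsp90b1 was at 1075 to 1390 CPM against 1193 to 2074 CPM (-0.35 ± 0.16 SE).

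Targets of p53 were the list with the largest share of positive members among the drug, recombinase and tumor state lists. Of 20 tested, 17 were positive and 3 negative (median 0.32), and 6 had an unadjusted p under 0.05, all of them higher with tamoxifen, where 4.61% of all genes lay below that level. None passed the adjusted threshold. Ccng1, which encodes cyclin G1, was at 977, 560.4, 715 and 882.5 CPM with tamoxifen and at 404 to 592 CPM (median 546) with vehicle, so that only library 7 overlapped (0.58 ± 0.20 SE, adjusted p = 0.954). Mdm2, the ubiquitin ligase that restrains p53, was at 192, 206, 184 and 227 CPM against 136 to 181 CPM (median 156), without overlap (0.35 ± 0.13 SE, adjusted p = 0.954). Trp53inp1, a stress-induced partner of p53, was at 175, 111, 536.5 and 148 CPM against 83.9 to 171 CPM. Pmaip1, the apoptosis gene Noxa, was at 163 CPM in library 8 and at 0.998 to 7.20 CPM in the other tamoxifen libraries, within the 1.03 to 9.86 CPM range of the vehicle arm or below it. Without library 8 the median of the list was 0.35, 15 of 20 were positive and 8 had an unadjusted p under 0.05. Of all genes, 5.32% then lay below that level. The summed level of the list was 2746.0 and 2480.7 CPM in the male and 2024.9 and 2580.7 CPM in the female tamoxifen libraries, 2339.3 CPM in the male vehicle library and 1721.1 to 1858.1 CPM in the 5 female ones. With sex as a covariate the median of the list was 0.295, and in the female libraries alone it was 0.19, and Ccng1 had a log2 fold change of 0.28 and Mdm2 one of 0.32.

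The tumor state lists gave medians near that of all genes with all 10 libraries, and several moved without library 8. Of 24 ATII genes, 13 were positive (median 0.03), and the surfactant protein gene Sftpb was at 4182, 5994, 1980 and 4546 CPM with tamoxifen and at 4767 to 10572.3 CPM with vehicle (-0.58 ± 0.27 SE). Without library 8, 19 of 24 ATII genes were positive with a median of 0.40, and in the female libraries alone the median was -0.45. Alveolar type I genes had a median of -0.03 (0.225 without library 8), and Sema3e, a secreted guidance protein, was at 213 CPM in library 8 and 55.9 to 95.3 CPM in the others, against 35.6 to 67.7 CPM with vehicle (0.99 ± 0.33 SE, and 0.38 without library 8). Lineage factors (median 0.06, and -0.06 without library 8) and proliferation genes (median -0.09 with 8 of 27 positive, and -0.30 with 3 of 27 positive without library 8) held 0 members with an unadjusted p under 0.05. The matrix list had a median of 0.145, with 8 of 14 positive and 1 at an unadjusted p under 0.05. Its median was 0.088 without library 8 and -0.652 in the female libraries alone. Inpp4b, a phosphoinositide phosphatase in the CREB target list (median -0.06, and -0.11 without library 8), was at 199.6, 272, 84.5 and 155.5 CPM against 66.1 to 101 CPM (1.09 ± 0.36 SE, adjusted p = 0.954).

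Glycolysis and hypoxia medians moved further below 0 without library 8. With all 10 libraries, 5 of 16 glycolysis genes were positive (median -0.13), and 1, the phosphofructokinase gene Pfkl, had an unadjusted p under 0.05. Their summed level was 5299.6 CPM in library 8, 2121.1 to 2415.4 CPM in tamoxifen libraries 2, 7 and 9, and 2310.8 to 5379.3 CPM with vehicle. Without library 8, 0 of 16 were positive, the median was -0.72, and 13 had an unadjusted p under 0.05, where 5.32% of all genes did. In the female libraries alone the median was 0.13. Of 12 hypoxia genes, 3 were positive (median -0.30), and 3 had an unadjusted p under 0.05, against 4.61% of all genes. These were Stc1, Ankrd37, which was at 12.9, 29.03, 10.9 and 29.6 CPM against 33.0 to 54.6 CPM without overlap (-1.06 ± 0.43 SE), and the mitophagy receptor gene Bnip3 (-0.66 ± 0.29 SE). The hypoxia median was -0.68 without library 8.

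Most interferon genes and immediate early genes had negative log2 fold changes, and 0 of either list passed the adjusted threshold. Of 21 interferon genes, 16 were negative (median -0.44), and 4 had an unadjusted p under 0.05, all lower, where 2.24% of all genes were below that level and lower. The median was -0.20 without vehicle library 1 and -0.596 without vehicle library 5. The 4 included the transcription factor Irf9, the immunoproteasome subunit Psmb9 and the peptide transporter Tap1. Irf9 was at 9.66, 9.00, 12.3 and 10.4 CPM with tamoxifen against 12.9 to 17.6 CPM (median 13.9) with vehicle and did not overlap (-0.47 ± 0.19 SE, adjusted p = 0.994). The summed interferon list was highest in vehicle libraries 1 and 3 (3303.3 and 3933.1 CPM) and lay between 1018.3 and 1977.5 CPM in the tamoxifen arm. Of 21 immediate early and stress genes, 17 were negative (median -0.37) and 0 had an unadjusted p under 0.05. Egr1, an immediate early transcription factor, was at 1307, 1129, 983 and 1294 CPM against 1432 to 1956 CPM (median 1747), without overlap (-0.55, 95% interval -1.19 to 0.08). MHC class II genes had a median of -0.20 and a summed level of 166 CPM in library 8, against 1959.8 to 2279.7 CPM in the other tamoxifen libraries. Without library 8 the MHC class II median was 0.175, with 6 of 7 positive rather than 1 of 7.

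**Figure D4:**
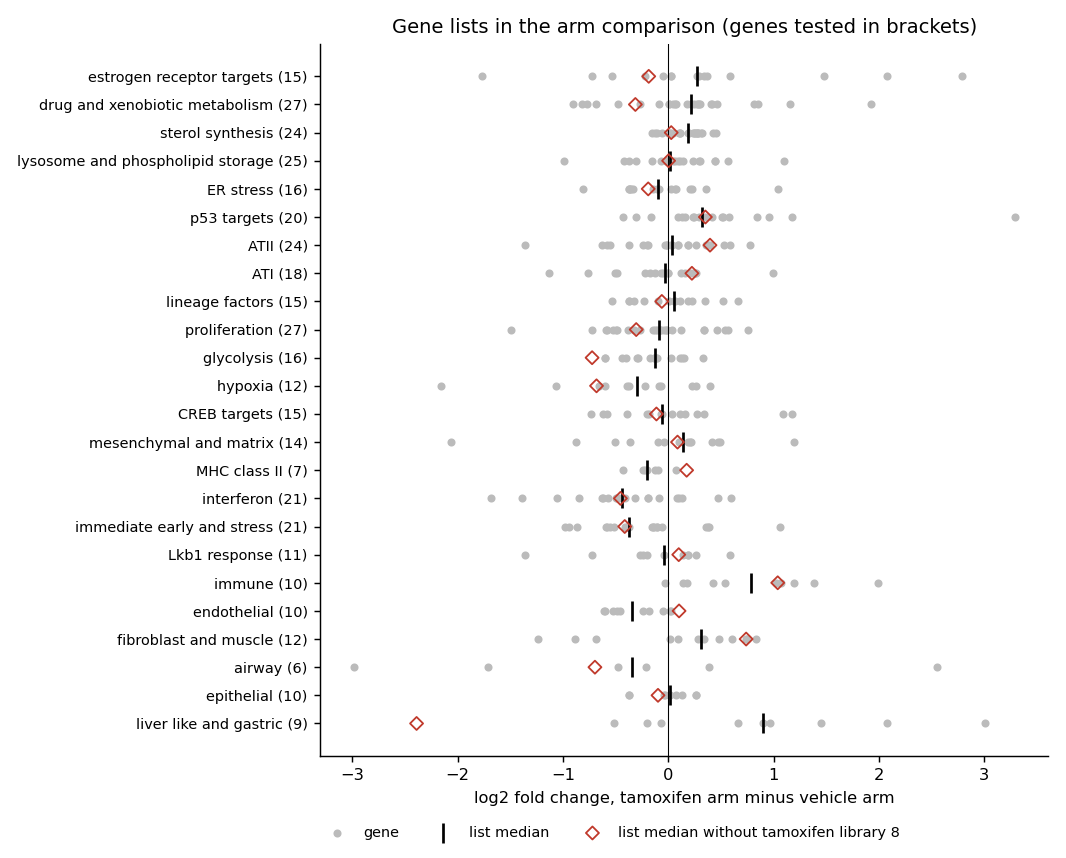
log2 fold change, tamoxifen minus vehicle, of each tested gene (grey) of 24 lists, with the list's median (black bar) and its median without tamoxifen library 8 (red diamond). The p53 target median (0.32 and 0.35) and the interferon median (-0.44 and -0.45) move little without library 8, whereas the gastric and liver median moves from 0.90 to -2.39 and the glycolysis median from -0.13 to -0.72.

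Immune, endothelial, fibroblast and red blood cell markers, of cells that the sort should remove, were low but unequal among libraries. The immune list (10 of 24 genes tested, 9 positive, median 0.78, and 1.04 without library 8) summed to 87.9 to 417 CPM with tamoxifen, highest in library 2, and to 53.1 to 231 CPM with vehicle. The leukocyte gene Ptprc was at 0.59 to 24.9 CPM against 1.63 to 4.45 CPM, and the T cell gene Cd3e was at 0 in all 4 tamoxifen libraries and in 5 of 6 vehicle libraries. Endothelial genes (10 of 12 tested, median -0.34) summed to 4.41 to 346 CPM against 27.3 to 495 CPM, and fibroblast and muscle genes (12 of 14 tested, median 0.31) to 9.44 to 555 CPM against 52.2 to 453 CPM. Library 8 was the lowest of all 10 for both, and without it the medians were 0.103 and 0.74. Airway genes (6 of 13 tested, median -0.34, and -0.70 without library 8) summed to 50.8 to 6272.4 CPM against 175 to 1421.7 CPM, highest in library 8. The mucin gene Muc5b of this list was at 6577.2 CPM in library 8 and 1373.5 CPM in vehicle library 4 (TMM scale). The airway sums of these libraries were therefore mostly Muc5b, which also lay at the positive end of component 1. Scgb1a1 was at most 135 CPM and Foxj1 at most 3.36 CPM in any library. Red blood cell genes summed to at most 4.59 CPM, and Hba-a1 was at 0 in all 10 libraries. The part of these cells in the differences above was not tested, and fewer cells of a type and less RNA per cell cannot be told apart in bulk libraries. Epithelial markers had a median of 0.01, and of -0.097 without library 8.

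Genes near the Rosa26 locus, where the arms differ by the FLPo-ERT2 allele, were examined by position. Gt(ROSA)26Sor starts at chr6:113067428 (GRCm38). Of 91 genes tested within 10 Mb of it, 5 (5.49%) had an unadjusted p under 0.05, against 4.61% of all genes, and 0 were called. These were Fxyd4, Apobec1, Rassf4, Tmem72 and Tuba8. Fxyd4, a regulator of the sodium pump, was at 5.80, 4.50, 26.2 and 5.19 CPM with tamoxifen and at 10.2 to 184 CPM with vehicle (-2.55 ± 0.82 SE), and Apobec1, an RNA-editing enzyme, was at 74.7 CPM in library 8 and at most 4.50 CPM in the others (2.56 ± 1.10 SE). The Rosa26 transcript itself was at 88.2, 63.9, 33.9 and 75.9 CPM against 45.4 to 101 CPM (-0.11, 95% interval -0.67 to 0.45). Over whole chromosomes the share of genes with an unadjusted p under 0.05 ran from 3.51% (chromosome 15) to 6.27% (chromosome X).

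A second pair of non-restored arms, Trp53-deficient, allowed the comparison to be repeated in other animals. It held 2 tamoxifen libraries from 2 mice without FLPo-ERT2 and 5 vehicle libraries from 2 mice with it, 16 to 19 weeks after tumor start, and libraries of 1 mouse were summed. Of 13885 genes, 2 were called (0.0144%), both lower with tamoxifen, and 6.94% had an unadjusted p under 0.05. Cadm1, a cell adhesion protein, was at 14.3 and 16.1 CPM in the tamoxifen mice and at 103 and 117 CPM in the vehicle mice (-2.84 ± 0.25 SE, adjusted p = 0.0116), and Add3, a cytoskeletal adducin, was at 8.67 and 7.61 CPM against 44.7 and 55.2 CPM (-2.59 ± 0.28 SE, adjusted p = 0.0324). Neither call survived leaving out any 1 of the 4 mice. In the Trp53 wild-type arms the same genes had log2 fold changes of 0.19 ± 0.63 SE and 0.08 ± 0.54 SE. Conversely, Gm28438 was at 109 CPM in both Trp53-deficient tamoxifen mice and at 136 and 180 CPM in the vehicle mice (-0.52 ± 0.29 SE), and Stc1 at 78.4 and 79.7 CPM against 89.3 and 136 CPM (-0.49 ± 0.34 SE). Of the 24 genes named above by smallest p, 23 were tested there, and 1 of them had an unadjusted p under 0.05 in the same direction (Rcbtb1, 0.56), 0 in the opposite one. The sign was the same for 16 of the 23, and for 60.0% of all genes tested in both backgrounds. The difference between the backgrounds in the arm effect was significant for 0 of 14288 genes (0.0%) in edgeR, with 502 at an unadjusted p under 0.05, and for 2 genes in DESeq2.

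The restored tumors share the drug with the tamoxifen arm and the allele with the vehicle arm, and differ from both by an intact Lkb1 transcript. All 7 restored libraries were female, against 2 of 4 in the tamoxifen arm and 5 of 6 in the vehicle arm, so sex differs in these comparisons as well. The restored libraries also came from fewer mice than libraries. The p-values and SE are too small for the same reason as between the arms. Against the tamoxifen arm 99 genes were called (0.783%), 48 higher and 51 lower in restored tumors, and against the vehicle arm 97 (0.768%), 46 higher and 51 lower. Both comparisons use the same 7 restored libraries, so their calls are not independent, and the test of the difference between them is the arm comparison itself. Leaving out 1 library gave 50 to 96 calls against the tamoxifen arm, where the count fell by more than 1.5 times without restored libraries 1 (63), 3 (65), 5 (65), 6 (50) and 7 (57) or tamoxifen library 7 (59). Against the vehicle arm it gave 57 to 124, with such a fall without vehicle library 3 (57) and restored library 2 (60).

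For genes known from earlier analysis of these libraries to respond to Lkb1, the values against each arm are given side by side. This list was chosen on these samples and is not independent evidence of its direction. Of 11 tested, 5 were called against each arm: Ptprn, Sord, Selenop, Tpcn2 and Itgav. Ptprn, a protein of dense-core vesicles, was at 18.7 ± 3.72 CPM in restored tumors (SD, n = 7), with a log2 fold change of -3.42 ± 0.37 SE against the tamoxifen arm (200.6 ± 119.6 CPM, SD) and -3.62 ± 0.36 SE against the vehicle arm (232 ± 122 CPM, SD). Sord, sorbitol dehydrogenase, had log2 fold changes of 1.94 and 1.90, the selenium transporter Selenop 1.35 and 1.49, the endolysosomal channel Tpcn2 -1.56 and -1.83, and the integrin subunit Itgav -1.20 and -1.01, against the tamoxifen and the vehicle arm. Their arm differences had 95% intervals of -0.98 to 0.58 (Ptprn), -0.63 to 0.55 (Sord), -0.33 to 0.61 (Selenop), -0.77 to 0.23 (Tpcn2) and -0.17 to 0.53 (Itgav). ATII genes had 0 of 24 called against either arm. Most were nevertheless higher in restored tumors, 21 of 24 against the tamoxifen arm (median 0.59) and 19 of 24 against the vehicle arm (median 0.57). The tamoxifen arm includes library 8, the lowest in summed ATII genes.

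Among genes with the smallest p between the arms, several were called in restored tumors against 1 arm and not against the other. Stc1 was at 26.4 ± 3.36 CPM in restored tumors (SD, n = 7), against 26.6 ± 8.65 CPM in the tamoxifen arm and 118 ± 81.4 CPM in the vehicle arm, so that it was called against vehicle (-2.16, adjusted p = 0.0031) and had a log2 fold change of 0.00 against tamoxifen (adjusted p = 1). Ndrg2 was at 7.88 CPM in restored tumors, 9.46 with tamoxifen and 33.7 with vehicle (means), and was called against vehicle (-2.06, adjusted p = 0.009) and had a log2 fold change of -0.24 against tamoxifen (adjusted p = 0.852). Atp6v0a4 was at 80.2, 78.8 and 181 CPM in the same order, and was called against vehicle (-1.18, adjusted p = 0.0175) with 0.02 against tamoxifen. AU021092 and Atp13a4 showed the other order. AU021092 was at 117 CPM in restored tumors, 56.8 with tamoxifen and 116 with vehicle, and was called against tamoxifen (1.05, adjusted p = 0.0309) with 0.02 against vehicle, and Atp13a4 was at 77.1, 16.5 and 48.6 CPM and was called against tamoxifen (2.20, adjusted p = 0.00951) with 0.65 against vehicle. Inpp4b was at 179.5 ± 86.6 CPM in restored tumors (SD, 56.2 to 277 CPM), 178 with tamoxifen and 83.7 with vehicle and was called against neither (adjusted p = 0.997 and 0.125). Gm28438 was called against tamoxifen alone (-2.63, adjusted p = 0.00232, and 0.13 against vehicle). These genes were chosen for their arm difference, so the values describe where the restored level lay and test nothing further.

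**Figure D5:**
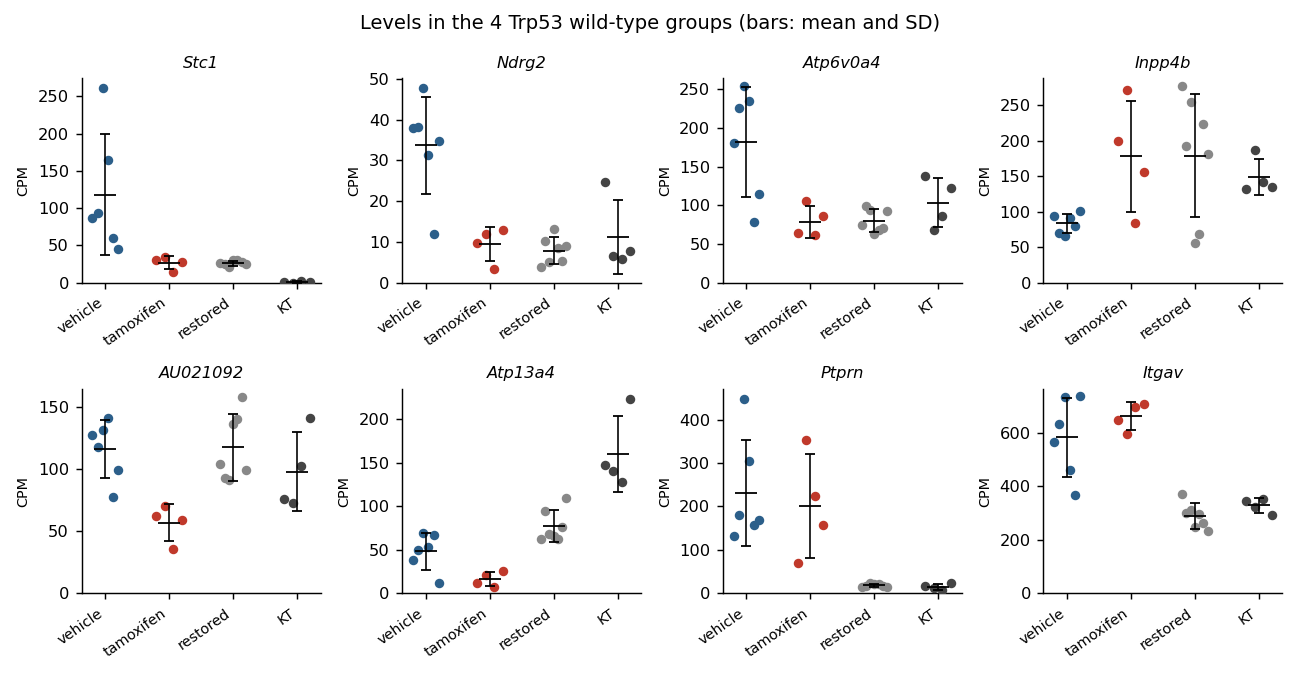
CPM of 8 genes in the 4 Trp53 wild-type groups, 1 point per library, with mean and SD (vehicle n = 6, tamoxifen n = 4, restored n = 7, KT n = 4). Restored means lie near the tamoxifen means for Stc1, Ndrg2, Atp6v0a4 and Inpp4b (for Inpp4b the restored libraries run from 56.2 to 277 CPM and span both arms), at or above the vehicle level for AU021092 and Atp13a4, and below both arms for Ptprn and Itgav.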

How the data were processed

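RNA-seq libraries (Trio RNA-Seq kit with removal of ribosomal sequence, 2 to 10 ng of RNA) were made from sorted neoplastic cells. Per the labels, reads were processed with STAR 2.6.1d and RSEM 1.2.30 on mm10, and the authors deposited an expected count and a TPM per gene and library. The deposited TPM was set beside the level of Stk11 and Trp53 and is not reported, and the effective lengths, which RSEM estimates per gene, served as offsets in an alternative. DESeq2 1.26.0 is named by the submitters for their own comparisons, which were not used here.

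Expected counts were rounded. The main test was edgeR 4.0.16 (robust quasi-likelihood, TMM, filterByExpr) on the 21 Trp53 wild-type libraries in 4 groups, with Benjamini-Hochberg adjustment at 0.05 over all 12636 genes. SE were the size of the log2 fold change divided by the square root of the F statistic of the same fit. The 95% intervals follow from these SE, which can be off where the log2 fold change is near 0. Trp53-deficient libraries of 1 mouse were summed, and the background difference was a term in a joint fit. CPM use TMM library sizes, except summed lists and single cell type markers, which use raw totals. Log2 CPM used a prior count of 2. Permutation tests were exact. Precision follows from 1485923 to 5080811 counts per library. Scripts were tested on simulated counts.

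Named genes were Stk11, Trp53, the 12 smallest p in each direction, up to 4 members of each list (those with an unadjusted p under 0.05, or the 1 with the smallest p), and genes within 10 Mb of Gt(ROSA)26Sor with an unadjusted p under 0.05. The Lkb1 response list and genes shown for a single pattern were added. Members and lists were chosen with earlier results of these data known. Sequences and positions are from GENCODE M21 (GRCm38), in which 12476 of the tested genes had 1 location. Alternatives (DESeq2 1.42.0, limma 3.58.1 with voom, other scalings and filters, sex, single libraries) are given in the closing section. The authors' tables of fold changes and p-values and of DESeq2-normalized counts were not used here. Some alleles and genes that these rules would name are not reported here.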

Additional observations from a re-analysis of the deposited data

Results flagged for a closer look

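Of 109 sets of 4 or 6 libraries examined (each of the top genes, the first 4 components and the summed lists, by arm), 17 held a library whose gap to the nearest other was over Dixon's critical value, where chance flags about 1 in 20. Of these, 7 were at tamoxifen library 8: Rcbtb1 at 85.9 CPM, component 3 at a score of 21.2, estrogen receptor targets at 6438 CPM, ATII genes at 12169 CPM, glycolysis genes at 5300 CPM, MHC class II genes at 166 CPM and the Lkb1 response list at 1804 CPM (the lists as sums). Tff1, at 5180.8 CPM in library 8 (TMM scale), is in both the estrogen receptor list and the gastric and liver list. The estrogen receptor sum in library 8 was therefore mostly Tff1. In the tamoxifen arm, library 7 stood out for component 4 (20.8) and Gm44752 (5.63 CPM), and library 2 for summed immune markers (417 CPM). In the vehicle arm, library 10 stood out for Atp13a4 (11.8 CPM), Mrps12 (1.31 CPM), summed p53 targets (2339 CPM) and the sex-linked genes (268 CPM, as the male of that arm). Library 5 stood out for Washc5 (68.0 CPM), library 6 for Ndrg2 (12 CPM) and library 4 for summed airway markers (1422 CPM, mostly the mucin gene Muc5b). The causes were not tested.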

How the results depend on the processing

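The wild-type arm comparison gave 1 call, 12 with DESeq2 (Gm28438 higher, and Stc1, B3gnt7, Clic6, AU021092, Atp13a4, Tgtp2, Atp6v0a4, AL592187.2, Tnxb and Ndrg2 among the 11 lower), 0 with limma voom and sample weights (926 at an unadjusted p under 0.05), 0 without a filter (1348), 0 in the fit of the 10 libraries alone (378) and 0 with sex as a covariate (799). It gave 0 to 1 leaving out 1 library (428 to 842). Restored against the tamoxifen arm gave 278 calls with DESeq2, 62 with length offsets, 149 with voom and 57 without a filter (50 to 96 leaving out 1 library). Restored against the vehicle arm gave 301 with DESeq2 and 359 with voom (57 to 124). The Trp53-deficient arms gave 114 with DESeq2, 7 with libraries in place of animals and 588 without a filter (0 to 1 leaving out 1 animal, where the lone animal was assumed to vary like the other group). The background difference gave 2 with DESeq2 and 0 to 2 leaving out 1 library or animal. The 1 call of the wild-type arms was also made with median of ratios size factors, upper quartile factors, length offsets, a higher filter and female libraries alone.

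Reversed log2 fold changes under voom were -0.567 (Abcb1b), -0.221 (Pmaip1), -0.0442 (Epcam), -2.5 (Gkn1), -0.537 (Apobec1) and 0.053 (Gt(ROSA)26Sor). Leaving out 1 library moved Abcb1b from -1.45 to 2.6, Pmaip1 from -0.208 to 3.68, Epcam from -0.133 to 0.371, Gkn1 from -1.6 to 4.44, Apobec1 from -0.626 to 3.18 and Gt(ROSA)26Sor from -0.275 to 0.108, each reversed without tamoxifen library 8. List medians that moved by over 1 SD between libraries were, under voom, -0.179 (estrogen receptor targets), 0.0433 (sterol synthesis), -0.581 (hypoxia) and -1.84 (gastric and liver). In the female libraries alone they were 0.232 (CREB targets), -0.933 (interferon) and -3.17 (endothelial), and with sex as a covariate -0.116 (immediate early). Leaving out 1 library gave medians of -0.185 to 0.3 (estrogen receptor targets), -0.312 to 0.286 (drug metabolism), 0.0286 to 0.236 (sterol synthesis), -0.13 to 0.134 (lineage factors), -0.723 to -0.0123 (glycolysis), -0.681 to -0.258 (hypoxia), -0.596 to -0.2 (interferon), -1.22 to 0.382 (endothelial) and -2.39 to 1.57 (gastric and liver). A fit without tamoxifen library 8 and with sex as a covariate, added after the data were seen, gave 0 calls (512 at an unadjusted p under 0.05), log2 fold changes of -0.52 (Abcb1b), -0.175 (Pmaip1), -0.134 (Epcam), -0.405 (Gkn1), -0.253 (Apobec1) and 0.142 (Gt(ROSA)26Sor), and medians of -0.124 (estrogen receptor targets), -0.578 (drug metabolism), -0.672 (glycolysis) and -0.0646 (immediate early). The causes were not tested.

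No paired analysis was possible because the arms share no replicate number. Limits are the joined change of drug and allele, unknown sharing of mice, 2 sexes in unequal shares, and depth, which puts genes near 2 CPM at the counting floor.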
